A study of Mus musculus with 4 samples.

Results

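Neutrophils and their precursors were a small population among the cells dissociated from mouse dorsal root ganglia (DRG). They were chosen by the calgranulin genes *S100a8* and *S100a9*. A cell was a member when these 2 genes made up at least 1% of its unique molecular identifiers (UMIs, 1 for each captured RNA molecule), when the complement genes *C1qa*, *C1qb* and *C1qc* together gave at most 4 UMIs, and when the hemoglobin genes stayed under 5% of its UMIs. Of 6975 deposited barcodes, 6095 passed the cell filters (at least 600 and at most 15000 UMIs, 500 to 4000 genes, under 10% of UMIs from mitochondrial genes), and 120 of these (1.97%) were members.

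Single cell RNA-seq (10x Genomics, counting the 3′ ends of transcripts) had been performed on whole ganglia of C57BL/6 mice aged 8 to 12 weeks. Control ganglia came from naïve mice and injury ganglia from mice 3 days after a sciatic nerve crush, with 2 libraries in each condition. The labels name L4 ganglia and the study's methods L4 and L5. The study states that each batch held cells pooled from several mice, and which mice went into which library is not given in the sources used here. Ganglia of both conditions were digested with papain and collagenase, and live cells were sorted before capture. No step that clears blood from the tissue is given in the sources used here. The number 2 is given by the labels to 1 library of each condition, and the other is called replicate 1. Control replicates 1 and 2 held 1301 and 1341 filtered cells, and injury replicates 1 and 2 held 2377 and 1076. Levels are given as CPM, counts per 1000000 UMIs of the summed cells.

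A neutrophil matures in the bone marrow through stages marked by the granules it builds. Azurophil granules come first and hold myeloperoxidase and serine proteases, specific granules follow with lactoferrin and cathelicidin, and gelatinase granules come last. Precursors divide until the specific granule stage and then stop, and mature cells carry chemokine and complement receptors that guide them out of the blood to injured tissue.

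Members stood apart from other cells in the values the rule used, which is a description of the choice. *S100a8* (chr3:90668978-90670035, plus strand, protein coding, mm10) and *S100a9* (chr3:90692632-90695721, minus strand) encode the subunits of calprotectin. Their joint share had a median of 24.8% in members and reached 39.9%, and 108 of the 120 members lay above 10%. The 3 lowest members had 1.12%, 1.88% and 2.32%, whereas the 3 highest nonmembers had 0.549%, 0.446% and 0.331%. No filtered cell past the calgranulin limit failed the limits on complement or hemoglobin genes. Members held at most 2 C1q UMIs and at most 0.796% hemoglobin UMIs. Between 98.1% and 98.9% of all *S100a8* and *S100a9* UMIs of the filtered cells lay in members in each library. Satellite glial cells, which should lack both genes, held them at 129, 49.7, 26.5 and 133 CPM, control libraries first and replicate 1 before 2. Scrublet, a doublet caller, marked 37 of all barcodes (0.530%) and no member. Across the libraries 20 barcode sequences occurred more than once, and none of them belonged to a member.

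Genes that the gate did not use fitted the label. Of 20 further neutrophil markers, 19 were measured (*Wfdc21* was not analysed here), and all 19 were higher in members than in the other filtered cells in all 4 libraries. Among the 10517 genes with a UMI in members, 6.22% were higher in every library. The gate itself selects for these genes, so the counts are a description. The largest ratios of the mean CPM in members to that in other cells, both plus 1, belonged to *Ngp* (neutrophilic granule protein, 3835-fold), *Camp* (cathelicidin, 3415-fold), *Ltf* (lactoferrin, 2320-fold), *1100001G20Rik* (1728-fold) and *Retnlg* (a resistin-like hormone, 1342-fold) beside the gating genes *S100a9* and *S100a8*. *Lcn2* (the siderophore-binding lipocalin), *Ly6g* (the surface antigen used to sort mouse neutrophils), *Fcnb*, *Cd177*, *Mmp8*, *Trem3*, *Orm1* and *Chil3* completed the 15 genes of highest ratio, with ratios from 220 for *Chil3* to 691 for *Lcn2*.

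Most marker lists of other cells were lower in members than in other cells, and the monocyte and the T and NK lists were not. The monocyte list summed to 1403 and 1236 CPM in control and 1849 and 1644 CPM in injury, against 1566, 475, 1425 and 1126 CPM in other cells. Its most abundant gene, *Ly6c2*, lay at 1203 ± 258 CPM (SD, n = 4 libraries) and was higher in members in all 4 libraries, while 5 of the 10 genes were lower in all 4, near the 49.9% of all genes with a UMI in members that were higher in none. Of 9 B lineage genes, 7 had no UMI in members, among them *Cd79a* and *Ms4a1*, and *Ebf1* was the most abundant at 11.2 CPM. *Cd3e*, *Cd3g*, *Trbc2*, *Ncr1* and *Klrb1c* of the T and NK list had none. *Cd3d* gave 13 UMIs, and *Nkg7*, a granule membrane gene, lay at 6.38 and 379 CPM in control and 37.7 and 669 CPM in injury, against 102 and 6.77 CPM in control and 11.4 and 20.9 CPM in injury in other cells. The T and NK list summed to 57.4, 379, 62.9 and 683 CPM in members and 342, 19.2, 23.4 and 22.8 CPM in other cells, higher in members in 3 of the 4 libraries. The macrophage gene *Mrc1* had no UMI in members, and the dendritic cell genes *Flt3*, *Siglech* and *Ccr7* had none. *Cd74*, the most abundant of that list, lay at 631 and 16.5 CPM in control and 75.5 and 19.1 CPM in injury, and the summed list at 988, 90.6, 151 and 95.6 CPM, highest in control replicate 1. The eosinophil and basophil list gave UMIs of 2 genes, *Ms4a2* and *Mcpt8*, with 2 UMIs and 1 UMI. *Apoe*, the most abundant gene of the macrophage list, lay at 408, 923, 3081 and 736 CPM in members, against a mean of 28509 CPM in the other cells. The summed satellite glia list lay at 19.1, 272, 629 and 129 CPM in members and the summed Schwann cell list at 31.9, 585, 528 and 239 CPM. Both were lowest in control replicate 1. The part that RNA from other cells plays in the members' values was not tested.

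The share of neutrophils did not differ between control and injury beyond the spread of the libraries. Members made up 2.92% of the filtered cells in control replicate 1 (38 cells, 95% exact binomial interval 2.08 to 3.99) and 1.86% in control replicate 2 (25 cells, 1.21 to 2.74). They made up 0.841% in injury replicate 1 (20 cells, 0.515 to 1.30) and 3.44% in injury replicate 2 (37 cells, 2.43 to 4.71). The injury libraries were thus both the lowest and the highest of the 4, and the groups overlapped. The means were 2.39% ± 0.747 in control and 2.14% ± 1.84 in injury (SD, n = 2 libraries), with p = 1 in a two-sided exact permutation test, whose smallest possible p with 2 against 2 libraries is 0.333. Between the libraries without a number the difference was -2.08 points, and between those numbered 2 it was 1.57 points. Other blood lineages varied too: erythroid barcodes, with at least 5% hemoglobin UMIs, numbered 0, 12, 9 and 26, and B lineage barcodes, with at least 3 UMIs of *Cd79a* and *Cd79b*, numbered 27, 6, 15 and 7. The intervals cover counting error only.

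**Figure D1:**
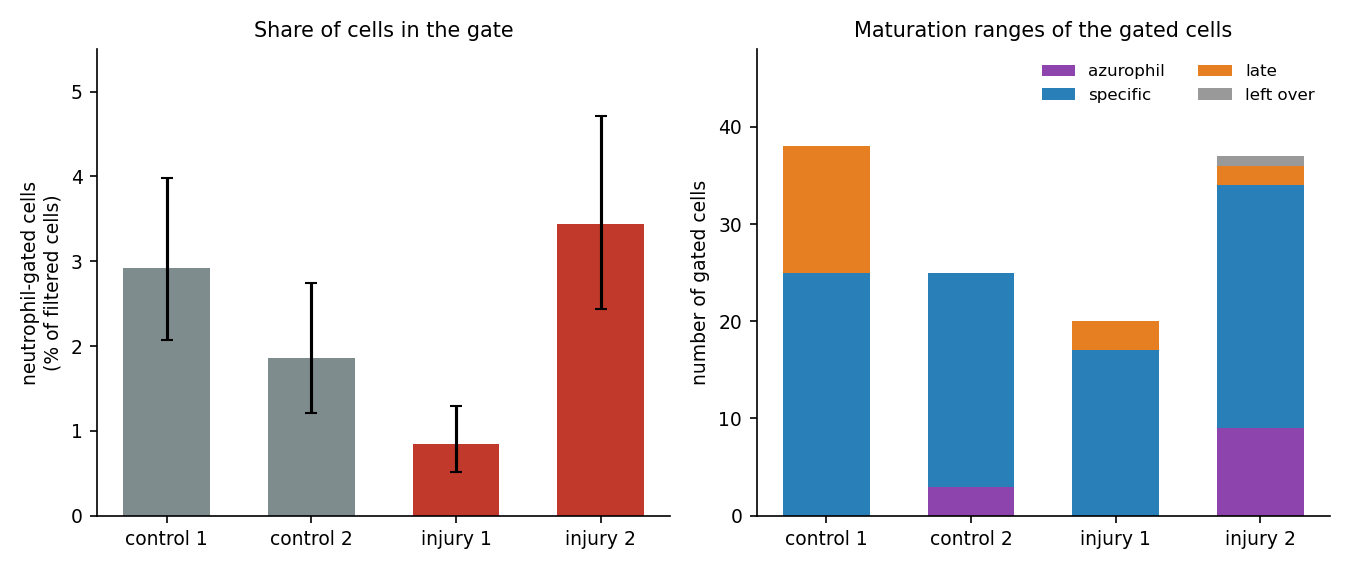
Left, gated cells as a percent of filtered cells in each library, with bars as the share and lines as 95% exact binomial intervals. Right, the number of gated cells of each maturation range. The injury libraries hold both the lowest share (0.841%) and the highest (3.44%), and cells of the azurophil range occur in the 2 libraries numbered 2.

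The members spanned the maturation path. They were divided by the share of their UMIs in granule genes into an azurophil range (*Mpo*, *Elane*, *Prtn3*, *Ctsg*, *Ms4a3* and *Prss57* at least 1%), a specific granule range (of the others, *Camp*, *Ngp* and *Ltf* at least 2%) and a late range (of the rest, *Retnlg*, *Mmp8*, *Mmp9*, *Csf3r*, *Cxcr2* and *Il1b* at least 0.5%). These are ranges along a path and not cell types. The azurophil range held 12 members (10.0%), the specific granule range 89 (74.2%) and the late range 18 (15%), and 1 member was left over. Within 2-fold of a limit lay 6 members at the azurophil limit, 12 at the specific limit and 11 at the late limit, the 11 all being cells of the specific range. Late cells held fewer UMIs than the others. The median cell had 5546 UMIs and 1616 genes in the azurophil range, 4604 UMIs and 1135 genes in the specific granule range, and 2026 UMIs and 649 genes in the late range. Within libraries the azurophil and specific medians were 4286 and 4851 UMIs in control replicate 2 and 5633 and 5572 in injury replicate 2, with no shared direction, and the late and specific medians were 1973 and 4326 in control replicate 1.

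Over the pooled libraries, the granule programs overlapped between neighbours and not between the ends. Of the 12 azurophil cells, 7 also passed the specific limit and 0 passed the late limit, and their highest late share was 0.0447%. Of the 89 specific range cells, 34 (38.2%) also passed the late limit, and 15 had no UMI of the late genes. No UMI of an azurophil gene was found among the 48484 UMIs of the 18 late cells, which allows up to 61.9 CPM for each gene. Late cells lie under the azurophil limit by definition. The azurophil cells came from control replicate 2 and injury replicate 2, which held 0 and 2 of the late cells. The ends were thus mostly in different libraries, and range and library are mixed here.

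**Figure D2:**
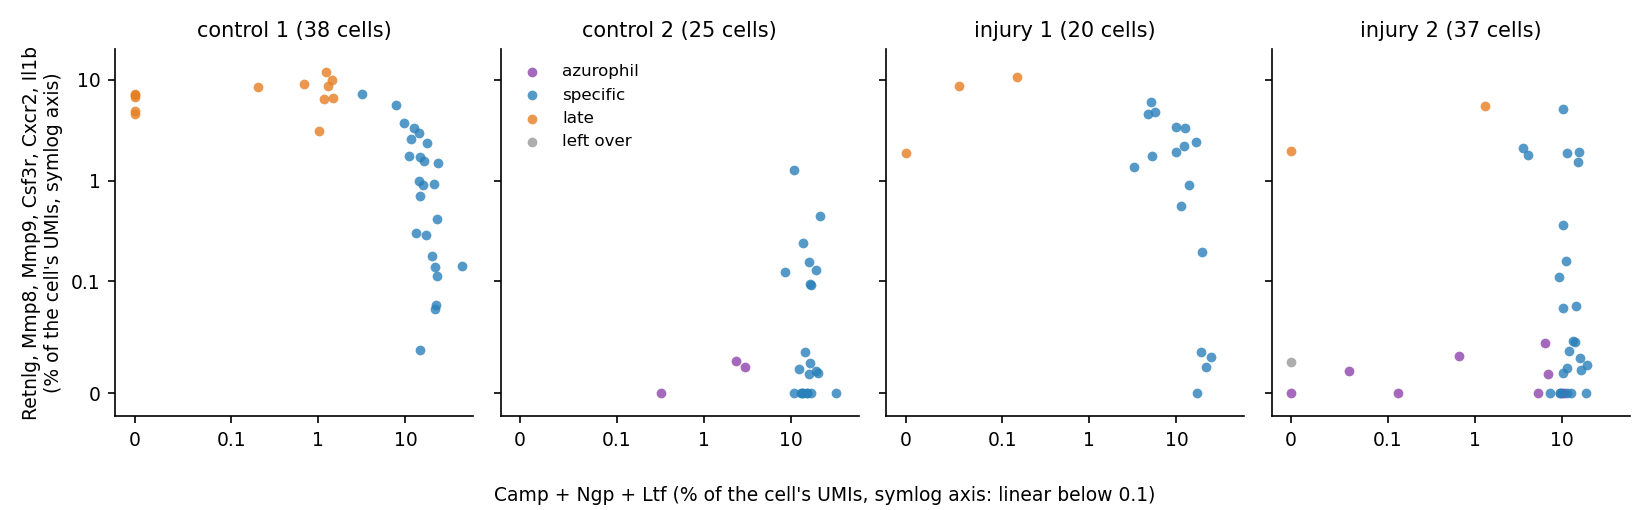
Each point is 1 gated cell, with the share of its UMIs in *Camp*, *Ngp* and *Ltf* on the x axis and in the 6 late genes on the y axis, both in percent on symlog axes. Colours mark the ranges. In control replicate 1 and injury replicate 1 the cells form an arc up to the late range, whereas in control replicate 2 most lie at the bottom right.

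The composition differed between libraries of the same condition. Control replicate 1 held 0 azurophil, 25 specific and 13 late cells, and control replicate 2 held 3, 22 and 0. Injury replicate 1 held 0, 17 and 3, and injury replicate 2 held 9, 25 and 2. The late share of members was thus 34.2% and 0% in control and 15% and 5.41% in injury, where 0 of 25 cells allows a share of up to 12.0% by a floor of 3 cells and 13.7% by the exact binomial interval. The azurophil share was 0% and 12.0% in control and 0% and 24.3% in injury. The groups overlapped or met in all 3 ranges. The differences of injury from control were 6.16 points for the azurophil range, -0.611 points for the specific range and -6.90 points for the late range, each with p = 1 in the exact permutation test. For the late range the difference was -19.2 points between the libraries without a number and 5.41 points between those numbered 2. Within the specific range, the cells past the late limit were 15 of 25 (60%) and 1 of 22 (4.55%) in control and 12 of 17 (70.6%) and 6 of 25 (24%) in injury, lower in both libraries numbered 2.

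Azurophil granule genes were found at high level in few cells. *Mpo* encodes myeloperoxidase, which makes hypochlorous acid, and *Elane*, *Prtn3* and *Ctsg* encode the serine proteases neutrophil elastase, proteinase 3 and cathepsin G. *Mpo* (chr11:87793581-87804413, plus strand) lay at 0 and 742 CPM in control and 25.2 and 2035 CPM in injury. *Elane* (chr10:79886247-79888215, plus strand) lay at 102 and 2950 CPM in control and 176 and 6178 CPM in injury. Both genes were low in the libraries without a number and high in those numbered 2, in either condition. All 12 azurophil cells held UMIs of *Mpo*, *Elane*, *Prtn3*, *Ctsg* and *Ms4a3*. Within injury replicate 2, which held 9 azurophil and 25 specific cells, *Mpo* was 82.8-fold and *Elane* 13.8-fold higher in the azurophil cells, as the limits imply. Genes that the limits did not use differed as well. *Fcnb*, a ficolin of the lectin pathway of complement, lay at 3015 CPM in the azurophil cells (166 UMIs, 95% Poisson interval 2574 to 3510) and 1414 CPM in the specific cells (203 UMIs, 1226 to 1623). *Nkg7* was 5.16-fold and *Ly6c2* 2.20-fold higher in the azurophil cells, and *Lyz2*, lysozyme, was 3.97-fold higher in the specific cells. In control replicate 2, with 3 azurophil cells, the ratios were 2.89 for *Fcnb*, 21.8 for *Nkg7* and 1.14 for *Ly6c2*, the last with overlapping intervals, and *Lyz2* was 20.8-fold higher in the specific cells.

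Cells with azurophil genes were also found outside the gate. There, 12 filtered cells passed the azurophil limit, with a median of 2.99% azurophil and 0.0181% calgranulin UMIs. They numbered 1 and 2 in control and 1 and 8 in injury, and 10 of them were among the 157 monocyte barcodes (cells outside the gate with at least 4 UMIs of *Ly6c2*, *Ccr2* and *F13a1*). Azurophil cells inside the gate held 4 to 47 UMIs of the same genes, so this limit does not tell monocytes from such precursors. The azurophil list summed to a mean of 4167 CPM in the monocyte barcodes.

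Specific granule genes were the most abundant after the calgranulins, with *Ngp* and *Camp* ranking 3 and 4 by mean CPM. Camp is an antimicrobial peptide that acts on microbial membranes, and lactoferrin binds iron. *Camp* (chr9:109847379-109849617, minus strand) lay at 53586 and 61928 CPM in control and 48006 and 43256 CPM in injury. *Ngp* (chr9:110419747-110423012, plus strand) lay at 76069 and 73167 CPM in control and 62683 and 44808 CPM in injury. For both genes the injury libraries lay below the control libraries without overlap, as for 4.99% of the 1422 genes tested between injury and control. *Ltf* (chr9:111019271-111042767, plus strand) lay at 12510 and 7984 CPM in control and 8942 and 4229 CPM in injury, and *Lcn2* at 11433 and 7828 CPM in control and 8967 and 4415 CPM in injury. In both conditions these 2 genes were lower in the library numbered 2, and the groups overlapped. *Pglyrp1*, a peptidoglycan recognition protein, varied least, between 3207 and 3762 CPM. *Olfm4*, a further specific granule gene, had no UMI among the 567000 UMIs of the members, which allows up to 5.29 CPM.

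The genes of this group did not follow one course along the path. *Camp* and *Ngp* were already present in the azurophil cells of injury replicate 2, at 23558 and 17728 CPM against 53970 and 58268 CPM in its specific cells. In control replicate 2 they lay at 12676 and 3652 CPM in the azurophil and 68332 and 82205 CPM in the specific cells. The cells were not alike: 5 of the 9 held 5.25% to 10.6% of their UMIs in *Camp*, *Ngp* and *Ltf* and 2.00% to 3.37% in azurophil genes, and the other 4 held 0% to 0.664% and 4.76% to 5.77%. *Ltf* had 1 UMI in those azurophil cells (18.2 CPM, 0.460 to 101) and lay at 6158 CPM in the specific cells, and *Lcn2* was 12.0-fold higher in the specific than in the azurophil cells. In the 3 azurophil cells of control replicate 2, *Ltf* and *Lcn2* had no UMI, so that the specific cells were at least 42.0-fold and 41.2-fold higher against a floor of 3 UMIs. In control replicate 1, where the late range had 13 cells and the specific range 25, *Ltf* was 64.0-fold, *Camp* 37.0-fold and *Ngp* 15.6-fold lower in the late cells, which the limits favour. *Lcn2* was 4.01-fold and *Chil3*, a chitinase-like protein, 17.3-fold lower in the late cells, while *Hp*, haptoglobin, lay at 3411 CPM in late and 3580 CPM in specific cells. The other genes of highest ratio in the specific range, beside the gating list, were *Orm1* (309 CPM against 16.5 in the other members), *AA467197* (422 against 41.3), *5430421N21Rik* (278 against 33.0), *Cpne3* (262 against 41.3) and the collagen gene *Col3a1* (108 against 8.26), the last found in 9 of the 89 cells. These levels are summed over libraries of unequal composition, so that range and library are mixed in them.

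Upstream sequence is shown for 2 of the 3 specific granule genes that hold the letters TTNNGCAA, a core of C/EBP binding motifs, since *Cebpe* of this family is known to drive these genes and was itself high in members. The letters were sought on both strands in RefSeq windows of GRCm38.p6 from 250 bases before to 50 after each gene's start. They occur in 10.8% of all 32851 windows, in 3 of 7 windows of the specific granule list (*Hp* is not in the table) and in 1 of 5 of the azurophil list, *Ms4a3*. By RefSeq's starts the first base of the motif lies 138 bases upstream in *Ngp* and 75 in *Ltf*, and by the first GENCODE start, which the gene positions given here use, 77 and 54 bases upstream. The *Lcn2* match and a second *Ngp* match lie inside the spans of these genes in GENCODE and are not shown. The stretches are written 5′ to 3′ on the gene's strand, with the motif in capitals, and cover chr9:110419644-110419703 and chr9:111019191-111019250, both on the plus strand. The capitals in *Ngp* match the letters on the opposite strand, and those in *Ltf* on the gene's own strand.
Ngp: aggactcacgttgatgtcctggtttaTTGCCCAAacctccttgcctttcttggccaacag
Ltf: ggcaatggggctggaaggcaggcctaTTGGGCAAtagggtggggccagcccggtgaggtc
A match is a match of letters, and binding was not measured.

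**Figure D3:**
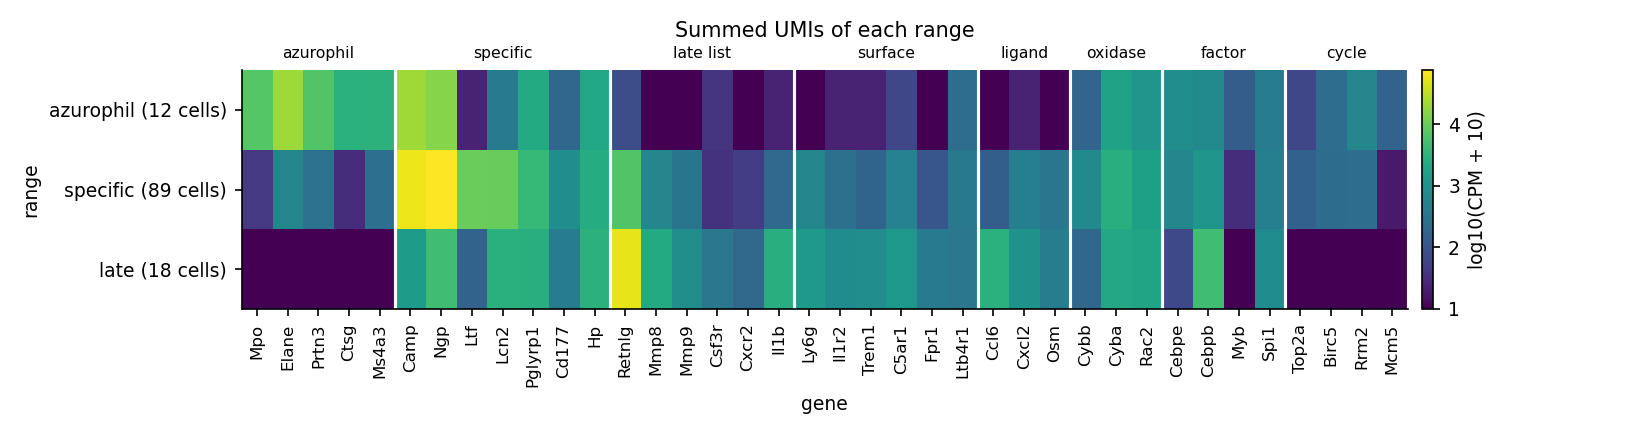
Level of 38 genes (columns, grouped by role) in the summed cells of the azurophil, specific and late ranges (rows), as log10(CPM + 10). *Ltf* and *Lcn2* are low in the azurophil cells that already hold *Camp* and *Ngp*, and the azurophil and cell cycle genes are at 0 or near it in the late cells.

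Genes of late maturation differed between libraries of the same condition. *Retnlg* (chr16:48872621-48874496, plus strand) lay at 21201 and 882 CPM in control and 16186 and 4553 CPM in injury. *Mmp8*, neutrophil collagenase of the gelatinase granules, lay at 1301 and 74.2 CPM in control and 1119 and 420 CPM in injury, and *Mmp9*, gelatinase B, at 650 and 33.0 CPM in control and 516 and 143 CPM in injury. All 3 genes were high in the libraries without a number and low in those numbered 2, and the conditions overlapped. *Csf3r* and *Cxcr2*, the receptors of granulocyte colony stimulating factor and of CXC chemokines, were sparse, with 31 and 28 UMIs in all members. In control replicate 1, *Retnlg* was 5.74-fold and *Mmp8* 2.46-fold higher in the late cells than in the specific cells, and *Mmp9* lay at 922 CPM (622 to 1316) and 579 CPM (453 to 730) with overlapping intervals. Outside the limits, *S100a6* was 2.97-fold and *S100a11* 2.00-fold higher there, and the intervals of *Ly6g* overlapped (1383 and 966 CPM). Of the stefin genes, which are near-identical copies whose reads may be divided among them, *Stfa2l1* gave 48 UMIs in members and *Gm5483* 44, of which 41 lay in 6 late cells. *Gm5483* had no UMI in the specific cells of control replicate 1, and was at least 52.2-fold higher in the late cells against the floor of 3 UMIs.

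Receptors of inflammatory signals were found in the specific granule range as well as in the late range. *C5ar1*, the receptor of complement fragment C5a, lay at 880 and 395 CPM in control and 516 and 292 CPM in injury. *Ltb4r1*, the leukotriene B4 receptor, lay at 529 and 190 CPM in control and 453 and 248 CPM in injury. *Il1r2*, the decoy receptor of interleukin 1, lay at 491 and 98.9 CPM in control and 377 and 177 CPM in injury. In each of the 3 genes the libraries numbered 2 were the lower ones. In the specific and late cells of control replicate 1, *C5ar1* lay at 780 and 1260 CPM and *Ltb4r1* at 563 and 399 CPM, both with overlapping intervals. *Il1r2* lay at 402 CPM in the specific (299 to 530) and 830 CPM in the late cells (547 to 1207). Of these 25 specific cells 15 also passed the late limit. Of the 20 receptor genes 12 were higher in members than in other cells in all 4 libraries (6.22% over all genes with a UMI in members), with *Il1r2* and *Trem1* at ratios of 78.8 and 86.9. The summed receptor list lay at 4597 and 1483 CPM in control members and 3647 and 1792 CPM in injury members. Its mean in the monocyte barcodes was 1626 CPM, near the level of the members in the libraries numbered 2. *Fpr1* and *Fpr2*, receptors of formylated peptides, had overlapping intervals between late and specific cells of control replicate 1. *Fpr1* lay at 522 CPM in late (304 to 836) and 225 CPM in specific cells (150 to 326), and *Fpr2* at 92.2 CPM (19.0 to 269) and 290 CPM (203 to 401). *Csf3r* was 9.55-fold, *Cxcr2* 4.91-fold, *Ccr1* 3.22-fold and *Trem1* 2.51-fold higher in the late cells, the first 2 by the limits. In the azurophil cells, *Fpr1*, *Fpr2*, *Cxcr2* and *Ccr1* had no UMI among 69019, which allows up to 43.5 CPM.

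Chemokines and cytokines were found mainly in the libraries without a number, in members and in other cells alike. The summed ligand list lay at 3418 and 437 CPM in control members and 4264 and 698 CPM in injury members. In other cells it lay at 3609 and 602 CPM in control and 3624 and 1199 CPM in injury. *Ccl6* lay at 440 and 0 CPM in control and 1396 and 100 CPM in injury. *Il1b*, interleukin 1 beta, lay at 810 and 0 CPM in control and 1056 and 62.1 CPM in injury, and *Cxcl2*, a ligand of Cxcr2, at 886 and 107 CPM in control and 1107 and 57.3 CPM in injury. The libraries numbered 2 were low in both conditions for all 3 genes. In control replicate 1, *Ccl6* was 16.5-fold and *Il1b*, by the limits, 8.01-fold higher in the late cells, *Cxcl2* lay at 1045 CPM in late and 845 CPM in specific cells, and *Osm*, oncostatin M, was 3.09-fold lower in the late cells. *Osm* was the only 1 of the 14 ligands higher in members than in other cells in all 4 libraries, a share near the 6.22% over all genes with a UMI in members. *Il6* and *Il10* had no UMI. *Ccl3* lay at 561, 41.2, 50.3 and 129 CPM in members, highest in control replicate 1, against a mean of 347 CPM in the other cells.

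Genes of the oxidase that makes superoxide were high in members. All 6 NADPH oxidase genes were higher in members than in other cells in every library, beside 6.22% of all genes with a UMI in members. The summed list lay at 7001 and 5372 CPM in control members and 6439 and 4778 CPM in injury members. In other cells it lay at 1186 and 305 CPM in control and 964 and 656 CPM in injury. The monocyte barcodes, with a mean of 2883 CPM, lay between, so part of this level is shared with them. *Cyba* lay at 3220 and 2480 CPM in control and 2830 and 2222 CPM in injury, and *Cybb*, its catalytic partner, at 587 and 585 CPM in control and 679 and 511 CPM in injury. *Cybb* was 3.75-fold lower in the late than in the specific cells of control replicate 1 and 3.28-fold lower in the azurophil than in the specific cells of injury replicate 2. *Alox5ap*, which hands arachidonic acid to 5-lipoxygenase, lay at 1804 and 602 CPM in control and 1484 and 975 CPM in injury, and *Ltc4s* had no UMI. *Lta4h*, which makes leukotriene B4, had 158 UMIs in members, of which 1 lay in the late cells.

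Some transcription factors differed along the path. Of 12 factors, 3 were higher and 6 lower in members than in other cells in all 4 libraries. Over all genes with a UMI in members, 6.22% were higher in every library and 49.9% in none. *Cebpe*, known to be needed for specific granules, lay at 312 and 857 CPM in control and 390 and 726 CPM in injury, higher in both libraries numbered 2. In the azurophil and specific cells it lay at 788 and 866 CPM in control replicate 2 and 799 and 738 CPM in injury replicate 2, and it had no UMI in the late cells of control replicate 1 against 49 UMIs (394 CPM) in its specific cells. *Cebpb* lay at 2385 and 470 CPM in control and 1824 and 932 CPM in injury, and was 3.78-fold higher in the late than in the specific cells of control replicate 1. *Myb*, a factor of dividing progenitors, gave 19 UMIs in members, 9 of them in azurophil cells, and none in late cells. *Spi1*, the myeloid factor PU.1, varied little across the libraries, between 435 and 548 CPM. Its intervals overlapped between the late and specific cells of control replicate 1 (645 and 523 CPM). *Irf8* and *Klf4*, factors of the monocyte path, lay at or below 50.3 CPM in members, against means of 715 and 171 CPM in the monocyte barcodes. *Cebpd* was not analysed here.

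Many members held cell cycle transcripts. A cell was counted when, after thinning to 1000 UMIs, it held at least 2 UMIs of 37 cell cycle genes. This held for 43 of the 120 members (35.8%), against 45 of 157 monocyte barcodes (28.7%) and 35 of 1520 satellite glial cells (2.30%), with median depths of 4476, 4435 and 3965 UMIs before thinning. Without thinning the shares were 47.5%, 49.7% and 15.4%. By range the cells numbered 9 of 12 (75.0%) in the azurophil, 33 of 89 (37.1%) in the specific and 0 of 18 in the late range, where 0 of 18 allows a share of up to 16.7% by the floor of 3 cells and 18.5% by the exact binomial interval. Azurophil cells came only from the libraries numbered 2. Within these the azurophil and specific shares were 66.7% (2 of 3) and 59.1% (13 of 22) in control and 77.8% (7 of 9) and 56% (14 of 25) in injury. In injury replicate 2, *Mcm6* and *Mcm7*, subunits of the replicative helicase, were 4.35-fold and 4.10-fold higher in the azurophil than in the specific cells, at 182 and 200 CPM (10 and 11 UMIs), with intervals that just overlapped. *Ube2c*, of the mitotic ubiquitin machinery, lay at 36.3 CPM in the azurophil cells (2 UMIs, 4.40 to 131) and 327 CPM in the specific cells (47 UMIs, 241 to 435). In control replicate 2 the *Ube2c* intervals overlapped, with 358 CPM in the azurophil (5 UMIs, 116 to 836) and 475 CPM in the specific cells. In injury replicate 2, *Rrm2*, a subunit of ribonucleotide reductase, lay at 636 and 327 CPM, and *Birc5*, survivin, at 254 and 272 CPM. In control replicate 2 *Rrm2* lay at 501 and 456 CPM with overlapping intervals.

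The share of members with cell cycle transcripts was 7.89% and 60% in control and 15% and 59.5% in injury, or 15.8%, 76.0%, 20% and 75.7% without thinning. Both libraries numbered 2 lay above both others, and the conditions overlapped. The injury and control means differed by 3.28 points (p = 1, exact permutation test), by 7.11 points between the libraries without a number and by -0.54 points between those numbered 2. Within the specific range, chosen for this count after the data were seen, the shares were 12.0%, 59.1%, 17.6% and 56.0% in the same order. Monocyte barcodes gave 22.6%, 19.0%, 23.4% and 59.3%, and satellite glial cells 4.05%, 1.67%, 1.77% and 4.14%.

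**Figure D4:**
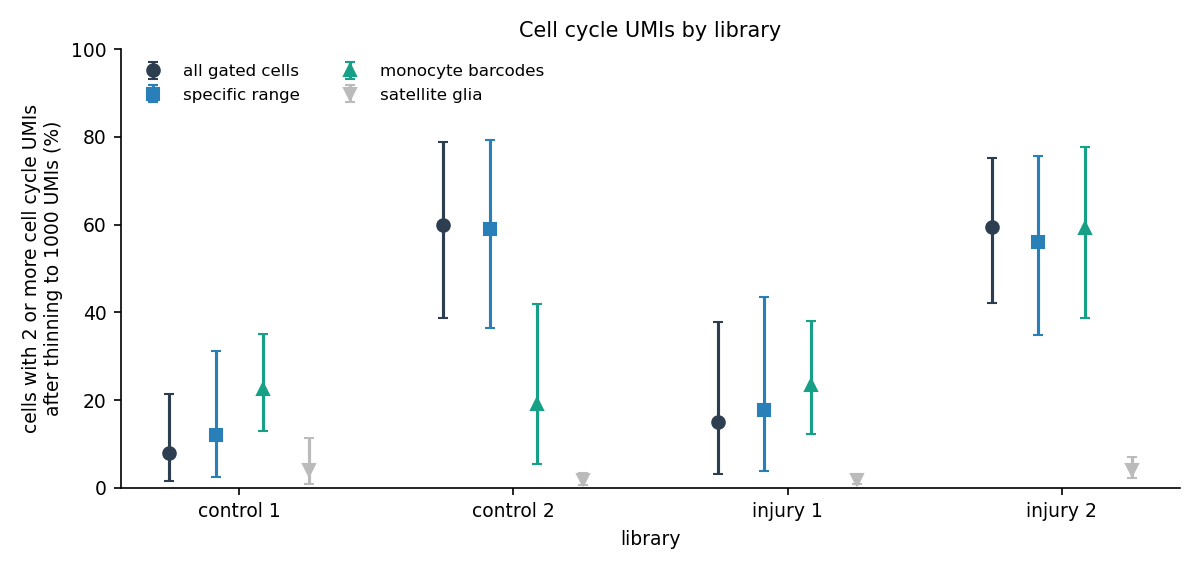
Percent of cells with at least 2 cell cycle UMIs after thinning each cell to 1000 UMIs, by library, for all gated cells, the specific granule range, monocyte barcodes and satellite glia. Points are shares and lines are 95% exact binomial intervals. Gated cells lie near 60% in control replicate 2 and injury replicate 2 and at 7.89% and 15% in the other libraries.

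The interferon response list summed lower in the libraries numbered 2. Its sum in members was 2971 and 783 CPM in control and 3195 and 936 CPM in injury, against 3288, 2316, 2702 and 2830 CPM in other cells. Of 14 genes 9 were lower in members than in other cells in all 4 libraries, beside 49.9% of all genes with a UMI in members that were higher in none, and 1, *Slfn4*, was higher in all 4, near the background of 6.22%. *Isg15* gave 12 UMIs and *Ifit1* 5 in all members. *Ifitm3* lay at 2378 and 709 CPM in control and 2239 and 750 CPM in injury, lower in the libraries numbered 2, and *Ifi27l2a* at 274 and 24.7 CPM in control and 679 and 62.1 CPM in injury. In control replicate 1, *Ifi27l2a* was 6.44-fold higher in the late than in the specific cells.

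No gene was called between injury and control. Raw UMIs of the members were summed per library and tested with edgeR's quasi-likelihood test over the 1422 genes that passed its filter on low counts. A call needed a p under 0.05 after Benjamini-Hochberg adjustment together with a log2 difference of 2 or more in size. By that rule 0 genes were higher and 0 were lower after injury (0% of the genes tested in each direction), 2 had an unadjusted p under 0.05, and the smallest adjusted p was 0.999. DESeq2 also called 0 genes. Of the lists, 0 of 6 azurophil, 0 of 7 specific granule, 0 of 12 receptor, 0 of 6 ligand and 0 of 12 cell cycle genes tested were called, with median log2 fold changes of 0.75, -0.53, -0.42, -0.04 and -0.03 beside -0.05 over all genes tested. Without control replicate 2, 18 genes were called higher and 4 lower, among the higher ones *Mpo*, *Ctsg* and *Elane*, the last with a log2 fold change of 4.73 (edgeR adjusted p = 0.00811). Without control replicate 1, 4 genes were called higher, *Ccl6*, *Il1b*, *Wfdc17* and *Retnlg*, the last with a log2 fold change of 3.56 (edgeR adjusted p = 0.0430). These genes were named after their values were seen. In these fits the lone control library is assumed to vary like the injury libraries, and genes at 0 in it have no bounded fold. Without either injury library 0 genes were called.

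The 5 genes of smallest p in each direction did not pass the adjusted threshold, and their values are given as levels. *Hbb-bs*, a beta globin, lay at 12.8 and 41.2 CPM in control and 176 and 134 CPM in injury. It is one of the hemoglobin genes that the gate limits, so that its values are a description. In the other filtered cells it lay at 6.28, 2057, 1765 and 3926 CPM, and its part in the members' values was not tested. *Npc2*, a cholesterol carrier of lysosomes, lay at 140 and 107 CPM in control and 528 and 296 CPM in injury (log2 fold change 1.53 ± 0.61 SE, adjusted p = 0.999 with edgeR). With each library left out in turn, its log2 fold change ranged from 0.961 to 1.95. *Tmsb10*, thymosin beta 10, lay at 638 and 461 CPM in control and 1660 and 1147 CPM in injury. *Ifngr1*, a chain of the interferon gamma receptor, lay at 102 and 90.6 CPM in control and 226 and 225 CPM in injury, and *Bsg* at 70.1 and 107 against 264 and 162 CPM. Both injury libraries lay above both control libraries for these 5 genes, as they did for 13.7% of the genes tested. Both lay below for *Ngp* (-0.65 ± 0.32 SE), *Orm1*, an acute phase protein (268 and 395 against 176 and 172 CPM), *Map1lc3a*, *Sft2d1* and *Ldhc*, as for 4.99% of the genes tested.

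The comparison within the specific granule range alone gave the same count. Its cells numbered 25 and 22 in control and 17 and 25 in injury. Of 1119 genes tested, 0 were called in either direction (0%), 4 had an unadjusted p under 0.05, and the smallest adjusted p was 1.00 after rounding. *Npc2* (112.6 and 65.2 against 481 and 230 CPM), *Tmsb10*, *Gas5* and *Rpl10a* were, with the gating gene *Hbb-bs*, the 5 of smallest p above control. *Ngp* (94403 and 82205 against 70479 and 58268 CPM), *Camp* (67144 and 68332 against 54020 and 53970 CPM), *Psmb8*, *Orm1* and *Lmo4* were the 5 below. Both injury libraries lay above both control libraries for 15.3% of these genes tested and below for 6.97%. The log2 fold changes of *Ngp* and *Camp* were -0.58 ± 0.20 and -0.44 ± 0.17 (SE), with adjusted p = 1.00 (edgeR) for both. The late and azurophil ranges had too few cells per library for this fit. Without control replicate 2, 13 genes were called higher and 3 lower, without control replicate 1, 5 higher and 0 lower, and without either injury library none.

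More genes separated the libraries by number than by condition, which is a description with no test. In all members, 37.7% of the 1422 genes tested were higher in both libraries numbered 2 than in both others, and 28% were lower in both. The higher group held all 6 azurophil and all 12 cell cycle genes tested, and the lower group 11 of 12 receptors, 5 of 6 ligands and all 6 NADPH oxidase genes. In the specific granule range the shares were 28.6% in each direction, and the higher group held all 9 cell cycle genes tested while the lower group held 8 of 10 receptors. Of the 37 cell cycle genes only these 12 and 9 passed the filter on low counts. A gene can pass that filter through 2 libraries in which it is high. The counts for the lists were thus partly set by the filter and are no support for a difference by number. There *Cebpe* lay at 394 and 866 CPM in control and 425 and 738 CPM in injury, *Fcnb* at 370 and 1164 CPM in control and 311 and 1414 CPM in injury, and *Mmp8* at 998 and 83.8 CPM in control and 1104 and 446 CPM in injury. *Camp* did not follow the number. Members of the libraries numbered 2 also had more UMIs, with medians of 4612 and 5458 against 3508 and 4009. All filtered cells had medians of 4054 and 4845 UMIs in these libraries against 2775 and 3110 in the others. The 3 fibroblast genes tested were higher in members of both libraries numbered 2, with sums of 153 and 494 CPM in control and 62.9 and 511 CPM in injury. The part of depth or of RNA from other cells was not tested.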

How the data were processed

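Per the labels and the study's methods, the authors aligned 10x 3′ reads with Cell Ranger to mm10 and analysed them in Partek. The deposited matrices hold raw UMI counts per gene for barcodes already called as cells, which the study describes as filtered, with 5585909 and 11210875 UMIs in control and 11163177 and 9477167 in injury. The limits of the cell filters are those of the study, which words the first as reads per cell. They were applied here to UMIs and left 6095 cells, fewer than the study states. The study's removal of low expressed genes was not applied. Members and gene lists were chosen with earlier results of these data known. The named genes are the list genes, the 15 highest ratios to other cells, the 10 highest ratios of the specific range and the 5 smallest p per direction, and *Lyz2* and the genes of the leave-one-out fits were named after their values were seen. UMIs were summed per library and tested with edgeR 4.0.16 (TMM, filterByExpr, quasi-likelihood), with DESeq2 1.42.0 as an alternative. Only the edgeR test was run on simulated data, whose spread was set below that of the members. Few 2-fold changes were recovered there, so changes of that size can go uncalled. The study describes pools of mice per batch, so p-values measure the spread between libraries and not between single mice. Shares were compared with two-sided exact permutation tests. Gene positions are from GENCODE M21 (GRCm38). Ratios between ranges were given only above 3 UMIs, and intervals are at 95%. Alternatives were other limits for the gate and ranges, size factors, no low count filter, a replicate block, no Scrublet barcodes and leaving out each library.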

Additional observations from a re-analysis of the deposited data

Results flagged for a closer look

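Outside the cell filters, 14 barcodes met the limits on calgranulin, complement and hemoglobin genes and so were not analysed with the members. They numbered 7 and 0 in control and 6 and 1 in injury. Of these, 10 had under 500 genes, 5 were over the mitochondrial limit and 1 was over the maximum size. Groups of 2 libraries are too small for a search for outlying libraries.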

How the results depend on the processing

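Leaving out each library in turn moved the differences of injury from control, in percentage points, as follows. The share of filtered cells that were members (-0.253 with all libraries) ranged from -1.55 to 1.05, the azurophil share (6.16) from -6.00 to 18.3, the specific share (-0.611) from -11.7 to 10.5 and the late share (-6.90) from -24.0 to 10.2. The share of members with cell cycle UMIs (3.28) ranged from -22.8 to 29.3, and within the specific range (1.28) from -22.3 to 24.8. Genes called numbered 0 to 18 higher and 0 to 4 lower in all members, and 0 to 13 higher and 0 to 3 lower in the specific range. Halving the limits of the ranges moved the late difference to -0.359 and the specific difference to -9.24 points, and doubling them to -4.37 and -3.15. Under other settings 2 differences changed sign: the specific share was 0.790 points with a calgranulin minimum of 2%, and the cell cycle share was -1.33 points at 3 UMIs or more after thinning. DESeq2, other size factors, no filter on low counts, the stricter minimum and removal of Scrublet barcodes each gave 0 called genes.

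With the replicate number as a block, 0 genes were called in all members and 0 in the specific range, with 65 and 47 at an unadjusted p under 0.05. The deviations of libraries with the same number correlated at 0.74 in all members and 0.63 in the specific range, and at 0.48 in all other cells. These values are over unlike sets of 739, 627 and 11660 genes, so their sizes cannot be compared. With 2 libraries per condition and 120 members, the direction of a share rested on single libraries, and the late and azurophil ranges were too thin for a gene test.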
